A study of Mus musculus with 18 samples.

Results

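The 7 genes whose products copy DNA or hold and mend the copies are Mcm4, Cdc45, Rfc4, Pola2, Pold4, Cdca5 and Polq, 7 of the 40620 rows of a table of raw read counts. They were taken by symbol, as replication and sister chromatid genes of chromosomes 16 and 19. The rule uses no values, but earlier results of these data were known when the members were chosen. All 7 were found once and all 7 passed the filter on low counts. The table comes from MC3T3-E1, a preosteoblast line from mouse calvaria, in which stable lentiviral hairpins were used to ask what silencing of Rcor2, a corepressor of the CoREST family, does as osteoblasts form. Control libraries carried shScramble, and the others carried shRcor2-18 or shRcor2-20; both hairpin groups have the genotype label RCOR2 knockdown and the control has WT. Titles give 0h, 24h or 7d with 2 samples per construct and time. The osteogenic medium was growth medium with β-glycerophosphate, ascorbic acid and dexamethasone. The labels' protocols speak of proliferating and of confluent cells before induction, and do not say which the 0h samples are; they do not mention 7d.

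DNA synthesis starts when the MCM ring, of which MCM4 is a subunit, is joined by CDC45 to form the active helicase that opens the duplex. POLA2 is the regulatory subunit of DNA polymerase α-primase, which lays down primers. RFC4 belongs to the clamp loader that sets the PCNA ring on primed DNA, and POLD4 is the small subunit of DNA polymerase δ, which extends the lagging strand. CDCA5 (sororin) keeps cohesin on replicated sister chromatids, and POLQ is the polymerase that joins broken ends at short homologies. In dividing cells the messages of many such genes are made around the G1/S transition through E2F factors, or later in the cycle through CHR elements bound by DREAM and MuvB complexes. In bone, preosteoblasts divide before they mature.

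Of the 18 libraries, 15 were used, with 3504808 to 6139315 counts each. Sample 1 of each construct at 0h was left out by the rule that defined the set. Computed afterwards, the log2 CPM of these 3 libraries correlated at 0.73 to 0.76 with the other 15, which correlated at 0.85 to 0.91 with each other. The 3 libraries left at 0h were all sample 2, 1 per construct. Many rows of the table hold almost no reads where nearly every cell expresses the gene. A row name could therefore be read as its gene only in stretches from the starts of 6 chromosomes. There 102 of 104 commonly expressed genes were detected at 20 CPM or more, against 19.8% of 617 elsewhere. The stretches were drawn by these same genes at this same cut, so that contrast follows from the rule. Of other coding genes, which the rule did not use, 50.7% of 858 were detected in the stretches and 18.3% of 19810 elsewhere. These stretches held 962 protein-coding rows, called in-register rows, among them all 7 members. The row of Rcor2 lies outside them, so the silencing could not be checked by it; that row held 201 to 265 CPM in the 15 libraries. None of the 11 preosteoblast and osteoblast markers looked for was in register either, so the labelled cell type could not be checked.

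At both 24h and 7d, each library was most like a library of another construct, and the match of construct labels to libraries was not tested. Over 630 in-register rows other than the members, sample 1 of shScramble paired with sample 1 of shRcor2-18, sample 2 of shScramble with sample 1 of shRcor2-20, and sample 2 of shRcor2-18 with sample 2 of shRcor2-20. The labels do not state whether samples came from separate cultures; every p-value rests on the spread among the libraries at hand, which may be technical, and fewer than n of them may be independent.

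Promoter windows were read as sequence only, and their part in the members' values was not tested. The RefSeq table (GRCm38.p6, while the reads were aligned to mm9) held 6 of the members, and Mcm4 had no entry. The 120 bases before the annotated start are given 5′ to 3′ on the gene's strand, with capitals for TTTGAA (the core of a CHR element) and CCAAT on either strand where the match ended before the start. The windows lie at chr16:18811973-18812092 (minus strand, Cdc45), chr16:23127731-23127850 (minus, Rfc4), chr19:5964207-5964326 (minus, Pola2), chr19:4231773-4231892 (plus, Pold4), chr19:6084977-6085096 (plus, Cdca5) and chr16:37011666-37011785 (plus, Polq).
Cdc45: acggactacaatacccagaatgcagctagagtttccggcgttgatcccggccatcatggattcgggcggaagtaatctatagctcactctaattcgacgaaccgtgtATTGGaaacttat
Rfc4: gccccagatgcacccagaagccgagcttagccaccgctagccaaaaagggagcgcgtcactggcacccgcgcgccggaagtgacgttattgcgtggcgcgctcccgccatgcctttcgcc
Pola2: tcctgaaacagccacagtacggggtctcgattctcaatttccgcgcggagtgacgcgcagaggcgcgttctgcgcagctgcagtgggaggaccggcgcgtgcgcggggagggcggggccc
Pold4: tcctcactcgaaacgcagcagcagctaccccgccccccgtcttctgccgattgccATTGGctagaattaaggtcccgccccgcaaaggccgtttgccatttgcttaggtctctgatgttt
Cdca5: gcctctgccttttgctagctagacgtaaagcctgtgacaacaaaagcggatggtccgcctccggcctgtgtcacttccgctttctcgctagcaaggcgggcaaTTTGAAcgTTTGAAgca
Polq: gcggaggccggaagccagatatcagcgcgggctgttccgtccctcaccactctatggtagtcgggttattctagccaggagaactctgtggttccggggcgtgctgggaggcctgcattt
In the whole window of 250 bases before to 50 after the start, TTTGAA occurred in 3 of 6 members (Cdc45, Cdca5 and Polq) and in 17.9% of all 32851 promoter windows. Cdca5 held it as a pair, at -17 and -9 from the start. The E2F-type letters TTTCCCGC, TTTCGCGC, TTTGGCGC and TTTGCCGC occurred in none of the 6 and in 2.3% of all windows. GGCGGGAA, searched for after the windows had been read, occurred in Rfc4 and Polq just after the start, against 2.2% of all windows. CCAAT occurred in Cdc45 and Pold4, against 37.4%. A match here is a description of letters.

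Compared per kilobase of the principal transcript, Pold4 had the highest mean of the members at every time and Polq the lowest. Pold4 was not the highest in every library: in shScramble at 0h, Pola2 had 196 CPM per kb and Pold4 193. Pola2 was also the higher per kb in sample 2 of shRcor2-18 at 24h. There it had 458 CPM over 2.421 kb, against 156 CPM over 0.913 kb for Pold4. At 7d the levels were 206 ± 21.1 CPM per kb for Pold4, 101 ± 7.90 for Pola2, 74.7 ± 21.2 for Mcm4, 55.6 ± 12.3 for Cdca5, 32.4 ± 7.78 for Rfc4, 24.9 ± 7.14 for Cdc45 and 4.40 ± 1.56 for Polq (SD, n = 6). Among neighbours in this order, Pola2 and Mcm4, Mcm4 and Cdca5, and Rfc4 and Cdc45 differed by less than their summed SDs. At 0h the levels were 249 ± 50.1 for Pold4, 164 ± 27.8 for Pola2, 140 ± 39.1 for Mcm4, 104 ± 42.8 for Cdca5, 45.4 ± 11.5 for Rfc4, 41.4 ± 16.97 for Cdc45 and 7.63 ± 3.46 for Polq (SD, n = 3), in the same order.

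The first question of the time course is how the members stood after a week in culture against 24h, with 6 libraries on each side. Of the 7, 6 had lower fitted means at 7d, led by Polq and Cdca5, and Pold4 was the exception. Mcm4, Cdca5 and Polq were lower at 7d in all 6 pairs of libraries with the same construct and number, a pattern that 8.68% of the 12930 rows tested showed. In bulk RNA, fewer cells expressing a gene and less RNA per cell cannot be told apart. No member passed the test that was planned, edgeR over all rows (adjusted p under 0.05): 0 of 7, where 1.18% of all rows were called lower and 1.15% higher. At an unadjusted p under 0.05 there were 2 of 7 (Cdca5 and Polq), against 17.8% of all rows; leaving out any 1 library gave 2 to 4. DESeq2 called 1 of 7 (Cdca5, adjusted p = 0.0266), where it called 4% of all rows lower. A fit on the in-register rows alone called 2 (Cdca5, adjusted p = 0.0275, and Polq, adjusted p = 0.0320; edgeR), where 7.38% of its 637 rows were called lower. When that fit also had a replicate block (sample number within construct), a combination chosen after seeing the data, it called 4 lower, where 15.4% of the rows were called lower: Mcm4 at -0.51 ± 0.087, Pola2 at -0.39 ± 0.11, Cdca5 at -0.73 ± 0.11 and Polq at -0.84 ± 0.13 (log2 ± SE; edgeR adjusted p = 0.000526, 0.0208, 0.000325 and 0.000209). Over all rows the block called 0 of 7, where 0.603% of rows were called lower and 0.704% higher. No member had all 6 libraries at 7d below all 6 at 24h, as 2.42% of all rows had.

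**Figure D1:**
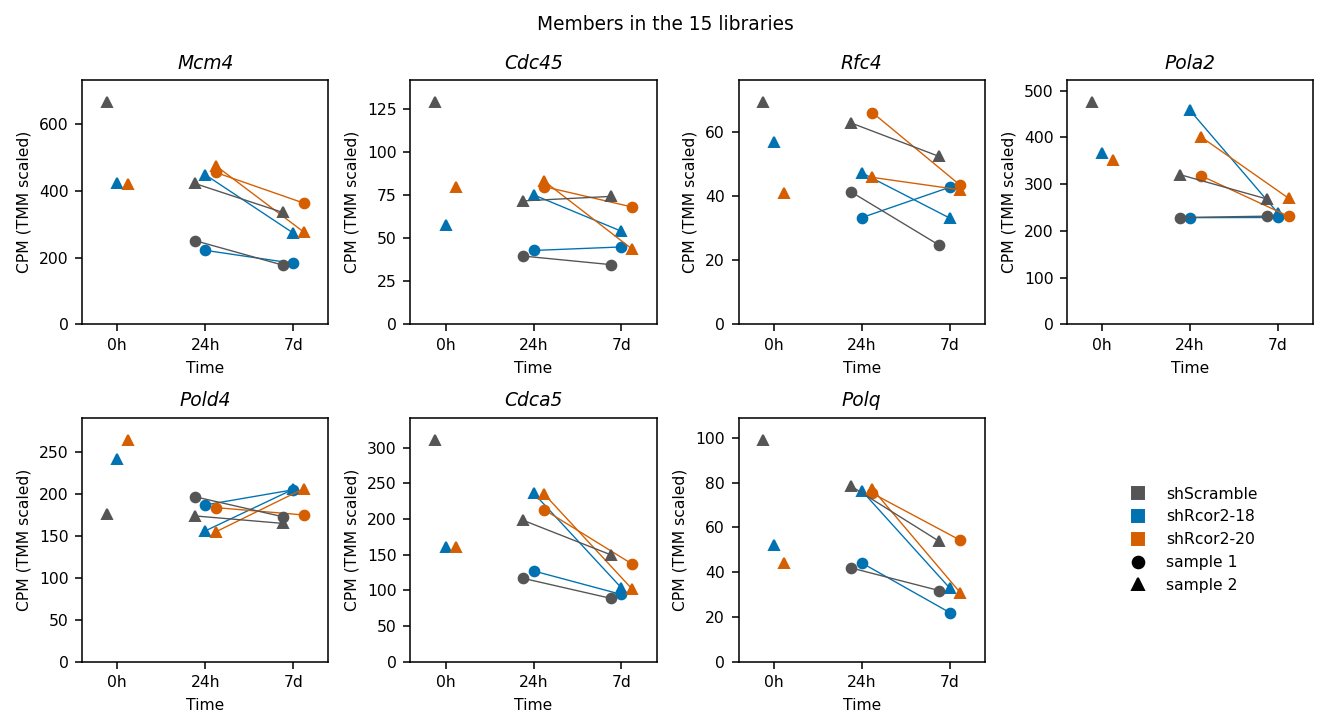
CPM of each member (vertical axis, from 0) in the 15 libraries by time; colours are constructs, circles sample 1 and triangles sample 2, and lines join 24h to 7d of the same construct and number. Lines of Mcm4, Cdca5 and Polq all slope down, those of Pold4 go both ways (3 down, 3 up), and Pola2 narrows to 229 to 270 CPM at 7d.

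Among the helicase genes, Mcm4 had 664 CPM at 0h in the shScramble library, 423 in that of shRcor2-18 and 419 in that of shRcor2-20. At 24h it had 251 and 422 CPM in samples 1 and 2 of shScramble, 222 and 448 in those of shRcor2-18, and 455 and 475 in those of shRcor2-20. At 7d the same libraries had 177 and 335, 183 and 274, and 363 and 277 CPM. The 7d values overlapped those at 24h and lay wholly below those at 0h, and the 2 lowest libraries at 24h and again at 7d were sample 1 of shScramble and of shRcor2-18. The fitted log2 change from 24h to 7d was -0.49 ± 0.25 (SE; edgeR adjusted p = 0.349).

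Cdc45 ran lower and followed the same libraries. It had 129, 57.8 and 79.7 CPM at 0h for shScramble, shRcor2-18 and shRcor2-20. At 24h samples 1 and 2 had 39.7 and 71.7 CPM for shScramble, 42.9 and 75.3 for shRcor2-18, and 80.0 and 83.2 for shRcor2-20. At 7d they had 34.7 and 74.3, 45.0 and 54.1, and 68.2 and 43.8 CPM. All 3 times overlapped, 4 of 6 pairs were lower at 7d, and the log2 change from 24h was -0.28 ± 0.26 (edgeR adjusted p = 0.658). Cdc45 overlaps Ufd1l on the other strand by 209 bases in the annotation, and no source used here gives the use of strand in counting. The Ufd1l row differed by 0.05 ± 0.11 over the same times.

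Of the primase and clamp-loader genes, Pola2 had 475, 366 and 352 CPM at 0h with shScramble, shRcor2-18 and shRcor2-20. At 24h samples 1 and 2 had 229 and 321 CPM for shScramble, 228 and 458 for shRcor2-18, and 318 and 402 for shRcor2-20. At 7d they had 232 and 268, 229 and 238, and 231 and 270 CPM. The highest value was 2.00 times the lowest at 24h and 1.18 times at 7d. Libraries that were low at 24h had nearly the same level at 7d (ratios of 1.01 and 1.00), while the others were lower by up to a ratio of 0.520. The log2 change from 24h to 7d was -0.41 ± 0.18 (edgeR adjusted p = 0.283).

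Rfc4 had 69.2, 56.9 and 41.0 CPM at 0h in the same order of constructs. At 24h it had 41.3 and 62.8 CPM for shScramble, 33.3 and 47.3 for shRcor2-18, and 66.1 and 45.9 for shRcor2-20 (samples 1 and 2). At 7d it had 24.7 and 52.4, 42.8 and 33.2, and 43.4 and 42.0 CPM. In 5 of 6 pairs the value was lower at 7d, the exception being sample 1 of shRcor2-18, and the log2 change was -0.30 ± 0.22 (edgeR adjusted p = 0.550). Rfc4 overlaps Eif4a2, a translation initiation helicase, by 194 bases on the other strand. The Eif4a2 row differed in the other direction, by 0.47 ± 0.10 (edgeR adjusted p = 0.0622); over the 15 libraries the log2 CPM of the 2 rows correlated at -0.69. Reads in the overlap could count for either, and their part in the values was not tested.

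Pold4, the polymerase δ subunit, stood apart from the rest. It had 177, 242 and 265 CPM at 0h with shScramble, shRcor2-18 and shRcor2-20, the only member whose lowest 0h value was that of shScramble. At 24h samples 1 and 2 had 197 and 174 CPM for shScramble, 187 and 156 for shRcor2-18, and 184 and 155 for shRcor2-20. At 7d they had 173 and 165, 205 and 206, and 175 and 206 CPM. The spread within 24h was the narrowest of the 7, with a highest value 1.27 times the lowest, and the change to 7d was 0.10 ± 0.085 (edgeR adjusted p = 0.621). At 7d 3 pairs were lower and 3 higher.

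Cdca5, the cohesin regulator, had 311, 161 and 160 CPM at 0h with shScramble, shRcor2-18 and shRcor2-20. At 24h samples 1 and 2 had 117 and 198 CPM for shScramble, 127 and 237 for shRcor2-18, and 213 and 235 for shRcor2-20. At 7d they had 88.9 and 149.8, 94.3 and 103.5, and 137 and 102 CPM. The ratio of 7d to 24h ran from 0.434 to 0.760 over the 6 pairs, and the log2 change was -0.73 ± 0.22 (edgeR adjusted p = 0.122). All 7d libraries lay below all those at 0h.

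Polq, the end-joining polymerase, had 99.1, 52.2 and 44.4 CPM at 0h. At 24h samples 1 and 2 had 41.9 and 78.4 CPM for shScramble, 44.2 and 76.4 for shRcor2-18, and 75.3 and 77.2 for shRcor2-20. At 7d they had 31.8 and 53.8, 22.0 and 32.9, and 54.3 and 30.9 CPM. The ratio ran from 0.399 to 0.759 over the 6 pairs. The log2 change of -0.82 ± 0.26 was the largest of the 7 (edgeR adjusted p = 0.140).

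Against 0h, with 1 library per construct there, all 7 members had lower fitted means at 7d. The log2 changes were -0.88 ± 0.29 for Mcm4, -0.84 ± 0.26 for Cdca5, -0.73 ± 0.31 for Polq, -0.69 ± 0.21 for Pola2, -0.66 ± 0.31 for Cdc45, -0.46 ± 0.27 for Rfc4 and -0.26 ± 0.10 for Pold4 (SE). Their median was -0.69, beside 0.07 over all rows. With edgeR, 0 of 7 passed, with adjusted p between 0.107 and 0.391, where 2.49% of rows were called lower and 3.27% higher; 5 of 7 had an unadjusted p under 0.05, against 20.5% of all rows. Without the shScramble library at 0h, only 1 of 7 did, and the median was -0.49. Leaving out any other single library gave 3 to 6. A construct without its 0h library dropped out of this comparison, so without that of shScramble it was the mean of both hairpin constructs. DESeq2 called 3 of 7 lower (Mcm4, Pola2 and Cdca5, adjusted p = 0.0338, 0.0281 and 0.0292), where it called 4.7% of rows lower. The same 3 were called on the in-register rows alone (edgeR adjusted p = 0.0362, 0.0274 and 0.0236), where 13.2% were called lower. With the replicate block as well, every member but Rfc4 was called lower, where 15.7% of rows were. Leaving out either shRcor2-18 library at 24h took Pola2 past the threshold (edgeR adjusted p = 0.0318 without sample 1 and 0.0320 without sample 2). All 6 libraries at 7d lay below all 3 at 0h for Mcm4, Pola2 and Cdca5, a pattern of 7.78% of all rows.

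Over the first day no member's libraries separated by time. From 0h to 24h the log2 changes were -0.39 ± 0.30 for Mcm4, -0.38 ± 0.31 for Cdc45, -0.36 ± 0.10 for Pold4, -0.28 ± 0.21 for Pola2, -0.15 ± 0.27 for Rfc4, -0.11 ± 0.26 for Cdca5 and 0.09 ± 0.31 for Polq. None of 7 passed with edgeR, where 0.387% of rows were called lower and 1.47% higher; 1 of 7 (Pold4) had an unadjusted p under 0.05, against 11.5%. DESeq2 called Pold4 lower (adjusted p = 0.0375), where it called 1.28% of rows lower. On the in-register rows edgeR called 0 of 7, where 2.83% were called lower, and with the block it called Pold4 (adjusted p = 0.0375), where 5.49% were. The 24h values of no member lay wholly below those at 0h, as those of 3.68% of all rows did. The comparisons with 0h share the 3 libraries at 0h, of which shScramble was the highest for the 6 members other than Pold4.

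**Figure D2:**
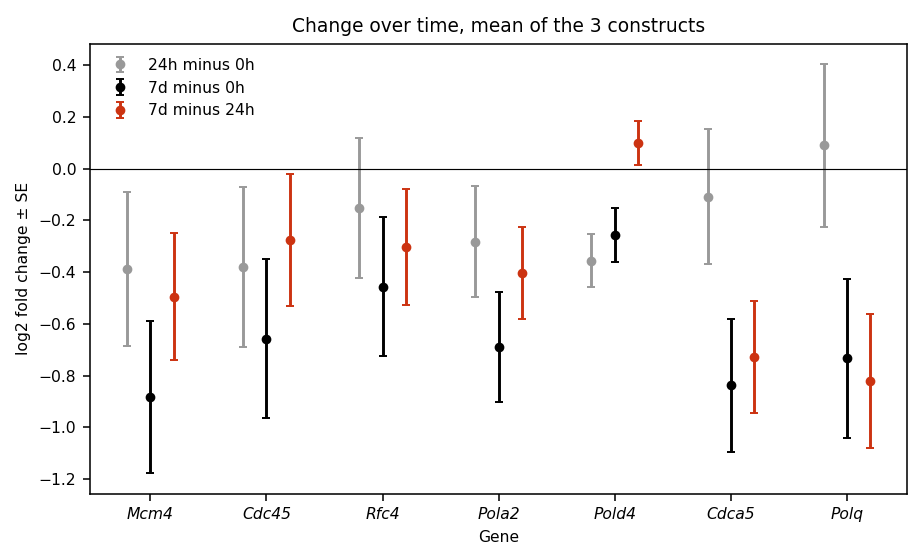
Fitted log2 change of each member (points) with its SE (bars), mean of the 3 constructs: 24h minus 0h in grey, 7d minus 0h in black and 7d minus 24h in red. All 7 black points lie below 0, and among the red points only that of Pold4 lies above 0.

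At 24h, but less so at 7d, 6 members were low in the same libraries and Pold4 was high there. At 24h, sample 1 of shScramble and sample 1 of shRcor2-18, most alike over the 630 other rows, were the 2 lowest libraries for each of Mcm4, Cdc45, Rfc4, Pola2, Cdca5 and Polq, and the 2 highest for Pold4. Of all rows tested, 13.1% had these libraries lowest and 13.6% had them highest; the pair was singled out after its values were seen. For Mcm4 the pair had 222 to 251 CPM and the other 4 libraries 422 to 475. For Polq the pair had 41.9 to 44.2 CPM and the others 75.3 to 78.4. At 7d the same pair was lowest for Mcm4 and Cdca5 only, against 10.7% of all rows. In sample 1 of shScramble at 7d, Pold4 lay below its time mean (log2 deviation -0.12), as every other member did. In sample 1 of shRcor2-18 at 7d, Rfc4 lay above its time mean (0.14), as Pold4 did (0.13).

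**Figure D3:**
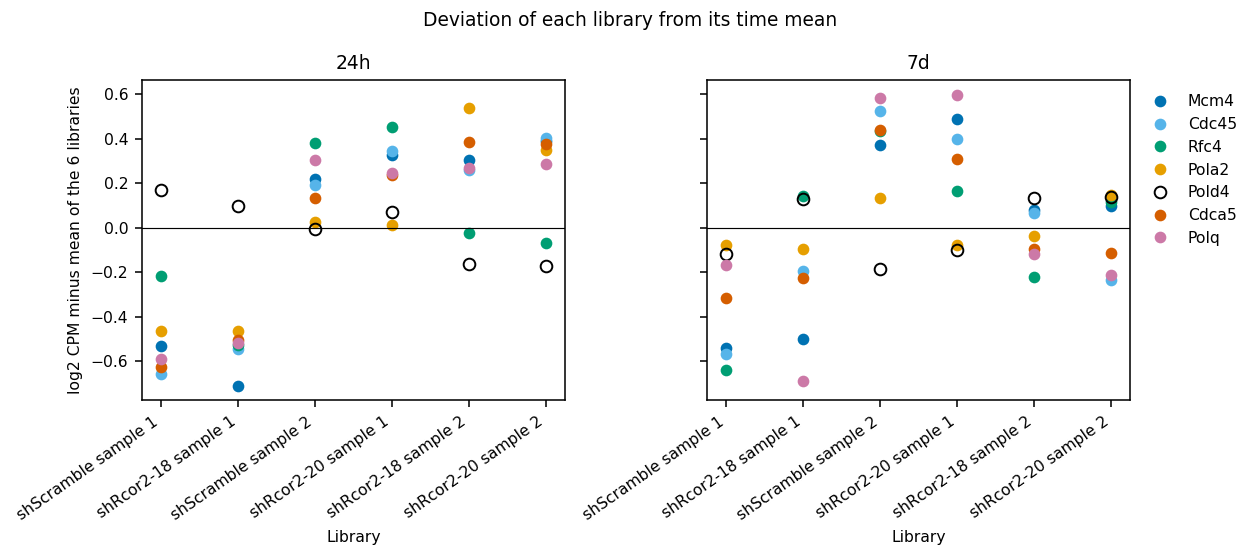
Log2 CPM of each member minus its mean over the 6 libraries of the time (vertical axis), by library, 24h left and 7d right; libraries that are most alike stand next to each other, and open circles are Pold4. At 24h the filled points of sample 1 of shScramble and of shRcor2-18 all lie below 0 and Pold4 above it.

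Over the 15 libraries the log2 CPM of Mcm4 correlated at 0.93 with both Cdca5 and Cdc45, at 0.89 with Polq, 0.86 with Pola2 and 0.79 with Rfc4, and at -0.13 with Pold4. Cdca5 and Polq correlated at 0.95, the highest of the 21 pairs of members. Once the mean of each time was taken out, over 12 libraries at 24h and 7d, Cdc45 and Cdca5 correlated at 0.96 and Mcm4 and Cdc45 at 0.93, while Pold4 ran from -0.11 with Rfc4 to -0.75 with Polq. These points share libraries, depth and the likeness across constructs, so the values are descriptions. From 24h to 7d the deviations from the time mean correlated (Pearson r over the 6 pairs) at 0.90 for Mcm4, 0.44 for Rfc4 and -0.56 for Pold4.

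The 5 in-register rows most like Mcm4 by Pearson r over the 15 libraries were Shcbp1 (0.96), Alcam, an adhesion molecule (0.95), Eif4g1, a translation initiation scaffold (0.94), Cdca5 and Cdc45 (0.93 each). Among the 636 other in-register rows, Polq ranked 8, Pola2 12, Rfc4 33 and Pold4 387. Shcbp1 differed by -0.76 ± 0.28 from 24h to 7d and Alcam by -0.97 ± 0.41 (edgeR adjusted p = 0.211 and 0.271), and Eif4g1 by only -0.14 ± 0.13.

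The coding genes next to the members went in both directions. Prkdc, the DNA-dependent protein kinase of end joining, lies head to head with Mcm4 and had 0.48 ± 0.12 from 24h to 7d (edgeR adjusted p = 0.0726), where Mcm4 had -0.49. Their log2 CPM correlated at -0.26 over the 15 libraries. Ube2v2, on the other side of Mcm4, had -0.06 ± 0.11. Beside Cdca5, Zfpl1 had 0.31 ± 0.085 and Naaladl1 -0.80 ± 0.35 (adjusted p = 0.0950 and 0.288). Beside Pold4, Clcf1 had -0.57 ± 0.23 (edgeR adjusted p = 0.240) and Ssh3 -0.12 ± 0.13. Cdc42ep2, beside Pola2, had -0.12 ± 0.11, and Fbxo40, beside Polq, -0.07 ± 0.53.

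Other genes of the pathways could be read only where their rows were in register. Of the replication list of 75 genes, 7 were, and the 2 that are no members were Rnaseh2c, a subunit of the enzyme that removes ribonucleotides from DNA (-0.30 ± 0.13 from 24h to 7d), and Donson, a replication fork protein (0.14 ± 0.089). Esco1, a cohesin acetyltransferase, was the other cohesion gene (0.14 ± 0.14). None of the 7 replication, 2 cohesion, 12 repair and checkpoint, 15 cell cycle and mitosis and 3 nucleotide genes passed in any of the 3 time comparisons.

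The medians from 24h to 7d were -0.30 for the replication list, -0.30 for cohesion, -0.14 for repair, 0.03 for the cell cycle list and 0.12 for nucleotide synthesis, beside -0.02 over all rows. The members make up 5 of the 7 replication and 1 of the 2 cohesion genes; without members the values were -0.08 over 2 replication genes, 0.14 for the 1 cohesion gene and -0.09 over 11 repair genes. Lowest in p within the cell cycle list were Nde1, a dynein partner in mitosis (-0.42 ± 0.11, edgeR adjusted p = 0.0852), and Cdk6, a G1 kinase (0.57 ± 0.20, adjusted p = 0.178). Slc29a2, a nucleoside transporter, had 1.07 ± 0.26 (adjusted p = 0.0762) and Umps, of pyrimidine synthesis, -0.28 ± 0.099 (adjusted p = 0.192).

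**Figure D4:**
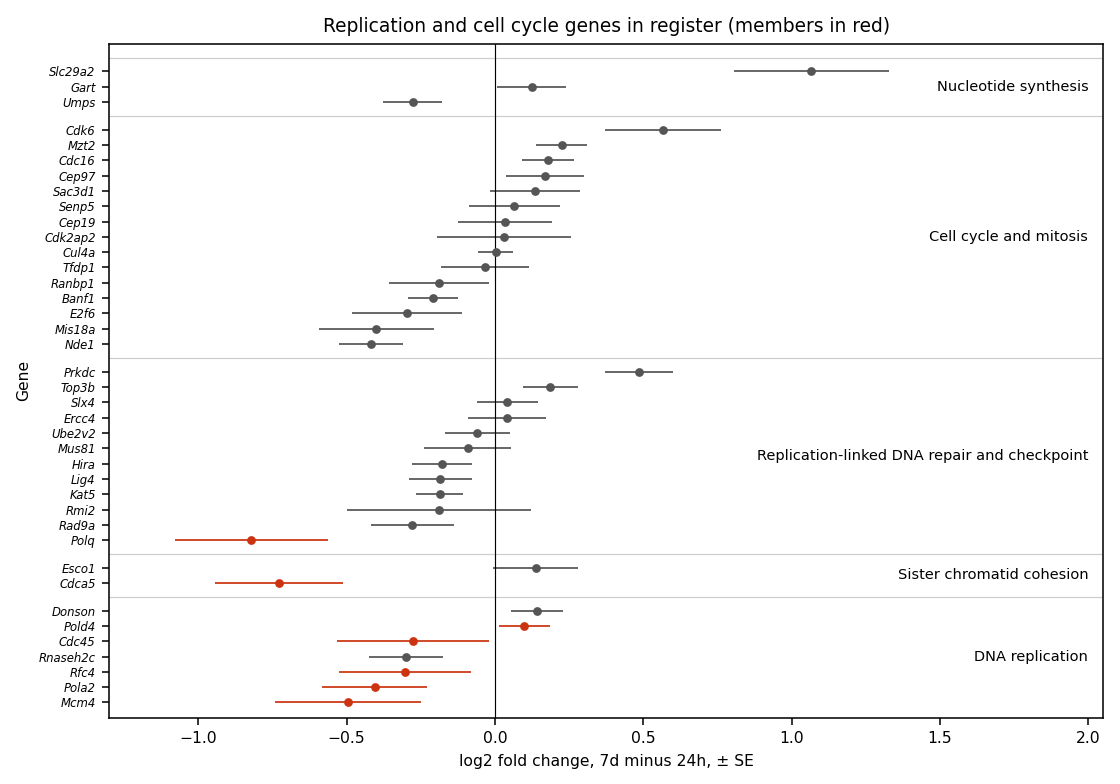
Log2 change from 24h to 7d (horizontal axis, points, with SE as bars) of every tested in-register gene of the 5 lists, members in red. Polq at -0.82 and Cdca5 at -0.73 lie farthest to the left and Slc29a2 at 1.07 farthest to the right.

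Markers of other cells moved with time in part. Actn3 and Fbxo40, 2 of 6 muscle markers, summed to 11.7 to 15.99 CPM at 0h, 83.0 to 184.7 at 24h and 154 to 190 at 7d. In the macrophage and lymphocyte list, 5 of 7 markers summed to 158 to 195, 165 to 196 and 211 to 298 CPM, most of it Cd80. Btla, a lymphocyte receptor, had 1.56 to 3.59 CPM at 0h, 2.98 to 10.9 at 24h and 18.7 to 67.2 at 7d. It was higher at 7d than at 24h by 2.51 ± 0.48 and than at 0h by 4.08 ± 0.71 (log2 ± SE; edgeR adjusted p = 0.0403 and 0.0155), the only one called of the 2 tested in that list. Actn3 was called higher at 24h and at 7d than at 0h, by 4.03 ± 0.34 and 4.67 ± 0.35 (adjusted p = 0.00135 and 0.000460), and Fbxo40 in neither. Cd86, Cd200r1 and Stfa1 were at 0 in all 15 libraries, as was the endothelial Cldn5. The adipocyte marker Adipoq reached at most 0.67 CPM. The part of other cells in the members' values was not tested.

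Between libraries as labelled, the series' own question, silencing of Rcor2, gave no detectable difference in any member at 24h or 7d. The silencing could not be checked. Whether the construct labels match the libraries was not tested, and at both times each library was most like a library of another construct. At 0h, with 1 library per construct, the hairpins were not tested against shScramble. There the shScramble library was the highest for every member but Pold4, for which it was the lowest. Mcm4 had 664 CPM in it, against 423 for shRcor2-18 and 419 for shRcor2-20. With edgeR 0 of 7 passed at 24h, at 7d, over both times or for the difference in the change with time, and 0 of 7 had an unadjusted p under 0.05 in any of these, where 2.73%, 3.46%, 3.44% and 3.09% of all rows had. Called were 0.0155% of all rows at 24h, 0.0387% at 7d and 0.0464% over both times, all higher, and 0.0155% lower and 0.0387% higher for the change. DESeq2 called 0 of 7 in each as well. Over both times the hairpins differed from shScramble by 0.15 ± 0.26 for Mcm4, 0.14 ± 0.27 for Cdc45, -0.03 ± 0.24 for Rfc4, 0.15 ± 0.19 for Pola2, 0.05 ± 0.090 for Pold4, 0.11 ± 0.23 for Cdca5 and -0.08 ± 0.27 for Polq (log2 ± SE, edgeR adjusted p = 1.00 each). Taken as 2 SE on each side, the interval was -0.37 to 0.68 for Mcm4 and -0.13 to 0.23 for Pold4.

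At 24h the hairpins stood 0.36 ± 0.33 above shScramble for Cdca5 and 0.36 ± 0.27 for Pola2, and at 7d -0.13 ± 0.32 and -0.05 ± 0.27. Libraries most alike are spread unevenly over this contrast: sample 2 of both hairpins pair without shScramble. At 24h Cdca5 had 237 and 235 CPM in that pair. Sample 1 of shScramble and of shRcor2-18 had 117 and 127 CPM. Sample 2 of shScramble and sample 1 of shRcor2-20 had 198 and 213 CPM. Pola2 had 458 and 402, 229 and 228, and 321 and 318 CPM in the same pairs. The part of this in the differences was not tested. The hairpins were not tested against each other. At 24h Mcm4 had 335 ± 160 CPM for shRcor2-18 and 465 ± 14.3 for shRcor2-20, beside 336 ± 121 for shScramble (SD, n = 2 each). The lowest unadjusted p for the change with time was that of Pold4, whose difference was 0.35 ± 0.18 (edgeR unadjusted p = 0.0867, adjusted p = 1.00).

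**Figure D5:**
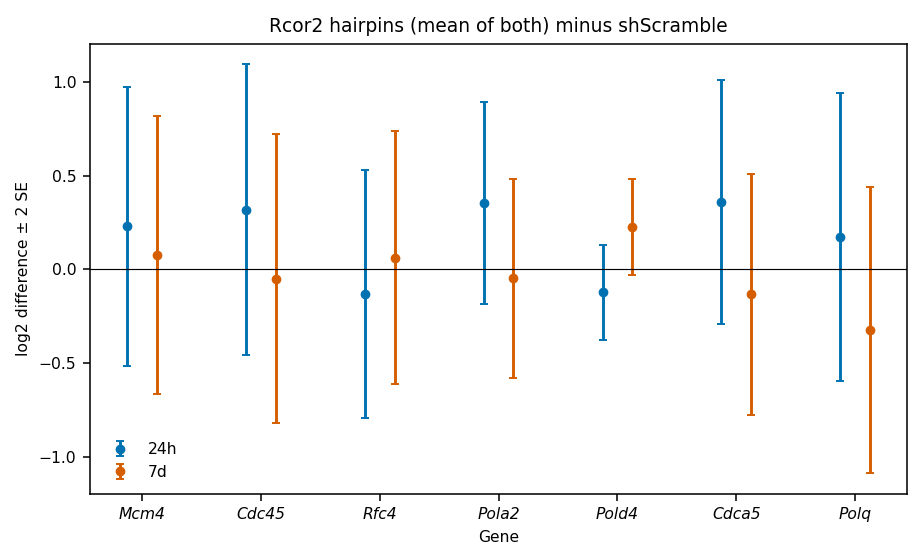
Mean of both Rcor2 hairpins minus shScramble (vertical axis, log2, points) for each member, with 2 SE on each side (bars), at 24h in blue and at 7d in orange. Every bar spans 0.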

How the data were processed

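The deposited values are raw counts, whole numbers per gene for 18 libraries in 1 table. The submitters' processing notes list FastQC, TopHat2 2.0.9, the build mm9, DESeq and DESeq2. How reads were counted, on which annotation and with what use of strand is not given in the sources used. The main test, on 15 libraries, was the quasi-likelihood test of edgeR 4.0.16 (R 4.3.3; filterByExpr over 9 groups, TMM, robust dispersions, glmQLFit, glmQLFTest; 9 group means, 12930 rows tested, 6 residual degrees of freedom), with Benjamini-Hochberg adjustment over all rows and a threshold of 0.05. The lone library of each construct at 0h takes its spread from the other groups. CPM are TMM scaled; log2 CPM add a prior count of 2. Lengths per kb are those of the principal transcript in GENCODE vM21, a measure chosen after exon unions had been seen to look too long. The script was tested on simulated data with known changes.

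A stretch in register runs along a chromosome from its start over commonly expressed genes (721 coding rows), ends at the last one with a mean of 20 CPM or more before 2 undetected in a row, and holds at least 3 detected. This was the 3rd version of the rule tried, all after the data were examined: earlier versions gave other ends, 1 of them left Polq out, and the other 6 members were in register in each. Some genes were added to the list of commonly expressed ones after levels near stretch ends had been seen. The rule decides which rows are named, the lists, the likeness and the fit on 637 in-register rows, not the main test.

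Members and lists were chosen with earlier results of these data known. Named are the members, their overlapping or flanking rows, in-register genes of 5 lists (those of lowest p from 24h to 7d) and the 5 rows most like Mcm4. GGCGGGAA was added to the motifs after the promoters had been read. Deviations from the group means at 24h and 7d correlated across in-register rows at 0.40, 0.45 and 0.30 in the 3 constructs, so libraries of the same construct and number were paired; the labels state no pairing. The blocked fit has 3 residual degrees of freedom. Alternatives were DESeq2 1.42.0, other scalings and filters, no robust dispersion, all 18 libraries, in-register rows, the block, and leaving out each library. Where the library left out was the only 0h library of its construct, that construct dropped out of the comparisons with 0h.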

Additional observations from a re-analysis of the deposited data

Results flagged for a closer look

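The 3 libraries left out, sample 1 of each construct at 0h, held more of most members than any of the 15 used, when all 18 were scaled together. Mcm4 had a mean of 1124 CPM there (890 to 1451), against at most 655 in the 15 used. Rfc4 had 140.9 CPM against at most 68.3, and Cdca5 440.5 against at most 307. Polq had 190.5 CPM against at most 97.9, and Pold4 296.9 against at most 261. Cdc45, at 99.8 to 158 CPM, and Pola2, at 452 to 591 CPM, overlapped the others. Mcm4 had 413 to 655 CPM in sample 2 at 0h, and 179 to 445 CPM in sample 1 at 24h and 7d. The 3 left-out libraries correlated at 0.98 to 0.99 with each other. They held reads in 11942 to 14355 rows, against 16555 to 18277 in the 15 used. What sets these 3 libraries apart was not tested. Each set of 4 to 10 libraries of a member at 1 time, 14 sets in all, was also searched for a library far from the rest by Dixon's test, and 0 were found. The 3 libraries used at 0h were too few to be searched. A pair of libraries low together, as at 24h, can escape such a test.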

How the results depend on the processing

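The counts of rows called depended on the tool and the rows fitted. Where a 0h library was left out, here and below, its construct also dropped out of the comparisons with 0h. In the order 24h against 0h, 7d against 0h, 7d against 24h, hairpins at 24h, at 7d, over both and their change with time, the counts were 240, 745, 302, 2, 5, 6 and 7. They were 578, 1406, 1076, 29, 21, 21 and 33 with DESeq2. They were 35, 165, 98, 1, 0, 0 and 0 on the in-register rows, where only 637 were tested. With the replicate block they were 56, 432, 169, 1, 0, 1 and 1, and the block changed no member's call. With both, chosen after seeing the data, they were 63, 200, 192, 3, 1, 7 and 1. With all 18 libraries, 38 rows were called for 7d against 24h and 0 in each hairpin comparison; with no filter, 4 were called for the hairpins at 24h. Leaving out 1 library gave 126 to 231, 310 to 762, 120 to 307, 2 to 12, 5 to 15, 4 to 14 and 4 to 11 (126 and 310 without shScramble at 0h, 120 without sample 1 of shRcor2-20 at 24h).

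Members passed only under alternatives. With all 18 libraries, 7d against 0h gave -1.60 for Mcm4, -0.92 for Pola2, -1.52 for Cdca5 and -1.78 for Polq (edgeR adjusted p = 0.0258, 0.0288, 0.0287 and 0.0395), and 24h against 0h gave lower means for 7 of 7, all with an unadjusted p under 0.05 and none past the threshold (median -0.81, against -0.28), among them Mcm4 at -1.12, Rfc4 at -1.02 and Polq at -0.98, the opposite direction to 0.09. The block turned Rfc4 between constructs to 0.021 and Cdca5 from 0h to 24h to 0.047, and on the in-register rows to 0.017 and 0.062.

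Leaving out 1 library turned the direction of these. From 0h to 24h, Cdc45 ran from -0.59 to 0.033, Rfc4 from -0.46 to 0.018, Cdca5 from -0.40 to 0.33 and Polq from -0.26 to 0.49. Between the constructs over both times, Mcm4 ran from -0.041 to 0.42, Cdc45 from -0.089 to 0.46, Rfc4 from -0.26 to 0.29, Cdca5 from -0.055 to 0.32 and Polq from -0.27 to 0.18. For the change with time, Mcm4 ran from -0.56 to 0.38, Cdc45 from -0.84 to 0.28 and Rfc4 from -0.25 to 0.83. The direction of 7d against 24h and of 7d against 0h held for each member under every alternative run, but not the size. Leaving out 1 library, 7d against 24h ran from -0.67 to -0.30 for Mcm4 (the last without sample 2 of shRcor2-18 at 24h), -0.49 to -0.11 for Cdc45 (without sample 2 of shScramble at 24h), -0.52 to -0.16 for Rfc4 (without sample 1 of shScramble at 7d) and -0.54 to -0.21 for Pola2 (without sample 2 of shRcor2-18 at 24h). For 7d against 0h it ran to -0.37 for Cdc45, -0.26 for Rfc4 and -0.49 for Polq without shScramble at 0h, and for Pold4 to -0.15 without shRcor2-20 at 0h. The cause of these shifts was not tested.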
